A study of Mus musculus with 21 samples.

Results

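A set of 10 genes encoding proinflammatory cytokines and their close partners was followed in newborn Jak1 knock-in (KI) and wild-type (WT) mice: Il6, Il1a, Il1b, Il1rn, Tnf, Il18, Il33, Osm, Lif and Csf1. They were chosen by name, and all 10 were found among the 24391 gene symbols of the count tables in all 21 libraries. The libraries came from brain, liver and skin of C57BL/6 mice (C57BL/6J in the methods of the study) on postnatal day 0, with 2 KI and 5 WT libraries per tissue and 1 library per mouse and tissue. The KI mice were heterozygous for a Jak1 allele (labelled Jak1 KI +/-, Jak1H595D/+;I596I/+;Y597Y/+) in which the amino acid change H595D was introduced together with the silent changes I596I and Y597Y. They descended from a mosaic KI male crossed with WT mice, and the WT mice carried neither the substitution nor the silent changes. The comparisons asked how the levels of these transcripts differed between KI and WT mice within each tissue.

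Interleukin-6 (IL-6), oncostatin M (Osm) and leukemia inhibitory factor (Lif) are secreted ligands that bind receptors sharing the signaling chain gp130, which is encoded by Il6st and which passes the signal to JAK1 and STAT3. IL-1α, IL-1β, IL-18 and IL-33 belong to the IL-1 family and signal through MyD88 to NF-κB, and Il1rn encodes the antagonist that occupies the IL-1 receptor without activating it. IL-1β and IL-18 are made as inactive precursors that caspase-1 cleaves in inflammasomes. Tumor necrosis factor (Tnf) also activates NF-κB, and Csf1 encodes the growth factor that keeps macrophages alive through the receptor kinase Csf1r. In the liver, IL-6 family ligands and IL-1 induce acute phase proteins, whereas in skin IL-1α, the IL-1 receptor antagonist, IL-18 and IL-33 are made by keratinocytes and other barrier cells.

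Between 26549326 and 38388133 read counts fell on genes per library, and a count of 0 allows a level of up to 0.0781 to 0.113 CPM in 1 library (3 counts; CPM is counts per 1000000 counts on genes). Jak1 itself was detected at 188 to 212 CPM in the 6 KI libraries and at 108 to 194 CPM in the 15 WT libraries. In liver it was 196 and 212 CPM in KI against 142 to 175 CPM in WT mice, and in skin 209 and 202 CPM against 170 to 194 CPM. Both KI libraries were thus above all WT libraries in liver and skin, as was true of 13.8% and 3.98% of all genes there. In brain KI and WT overlapped. A substitution does not show in gene counts, so Jak1 levels did not check the genotype labels. The summed markers of neurons were 4344 to 4901 CPM in brain and at most 36.2 CPM elsewhere, those of hepatocytes were at least 130864 CPM in liver, at most 32.4 CPM in skin and 33.9 to 2413 CPM in brain, and those of keratinocytes were at most 64.4 CPM outside skin. Within skin the keratinocyte sum was not even: KI 2 had 768 CPM and WT 5 had 1343 CPM, whereas the other 5 libraries had 3309 to 13171 CPM. The brain library of WT 5 also stood apart, since no gene was called in brain with it and 672 genes were called higher and 1026 lower without it. Y-linked transcripts were high in KI 2 and WT 3 in every tissue, with sums of 152 to 192 CPM against at most 1.91 CPM in the other libraries.

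The 10 genes lie on 7 chromosomes of the mouse build NCBIM37 (mm9). Il1a (chr2:129125346-129135708) and Il1b (chr2:129190306-129196875) are neighbors on the minus strand with 54597 bases between them, and Il1rn (chr2:24192373-24207014, plus strand) is on the same chromosome. Osm (chr11:4136423-4141029) and Lif (chr11:4157560-4172517) are adjacent on the plus strand with 16530 bases between them. Tnf (chr17:35336326-35338952, minus strand) lies 1158 bases from Lta. The others are Il6 (chr5:30339701-30346508, plus strand), Il18 (chr9:50383378-50389942, plus strand), Il33 (chr19:29999604-30035194, plus strand) and Csf1 (chr3:107543966-107563387, minus strand). Il1a overlaps Gm14023 and Il1b overlaps Gm14047 on the opposite strand, and because the library kit does not keep the strand, reads from such a pair cannot be told apart where the genes overlap.

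The 250 bases before the start site are shown for the 3 genes that had both KI livers above all WT livers. They are RefSeq promoter sequences (GRCm38.p6), each found once without mismatch in NCBIM37 at the position given. Capitals mark matches to an NF-κB motif (κB) or TGANTCA in Il6 and to TATAAA, or its reverse complement TTTATA, in Il1b and Il18.
Il6 (chr5:30339404-30339653, plus strand): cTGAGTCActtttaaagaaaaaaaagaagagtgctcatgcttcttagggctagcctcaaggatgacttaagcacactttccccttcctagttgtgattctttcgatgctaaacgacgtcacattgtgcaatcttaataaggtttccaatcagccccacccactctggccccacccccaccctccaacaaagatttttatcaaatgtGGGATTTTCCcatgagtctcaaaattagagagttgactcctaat
Il1b (chr2:129196876-129197125, minus strand): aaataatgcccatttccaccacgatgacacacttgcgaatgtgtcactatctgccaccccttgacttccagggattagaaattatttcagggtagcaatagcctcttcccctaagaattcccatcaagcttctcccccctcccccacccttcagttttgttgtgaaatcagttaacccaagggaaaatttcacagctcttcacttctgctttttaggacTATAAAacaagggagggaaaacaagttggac
Il18 (chr9:50362555-50362804, plus strand): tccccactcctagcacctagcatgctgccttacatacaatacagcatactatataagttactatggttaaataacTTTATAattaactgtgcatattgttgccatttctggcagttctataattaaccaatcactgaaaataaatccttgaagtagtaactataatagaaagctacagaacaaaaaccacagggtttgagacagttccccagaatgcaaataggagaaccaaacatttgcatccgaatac
In Il6 the κB match ran from 44 to 35 bases before the start and the TGAGTCA match from 249 to 243 bases before it. In Il1b TATAAA stood 31 to 26 bases before the start. In Il18 the match was on the other strand, 175 to 170 bases before the start. The RefSeq starts of Il6 and Il18 lie upstream of the starts of their gene models in the NCBIM37 annotation, and the positions given are counted from the RefSeq starts.

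Promoter sequences, 12 in all, were matched for 9 of the 10 genes, all but Osm, and both strands were searched for 4 motifs. A gene was counted if any of its promoters held the motif, whereas the shares below are of single promoters. The κB motif, bound by NF-κB, was found in 2 genes (Il6 and Csf1) and in 3.90% of all 32851 RefSeq promoters of this length. TGANTCA, the core bound by AP-1, was found in 4 genes (Il1a, Il1rn, Il6 and Lif) and in 6.75% of all promoters. TATAAA was found in 5 genes (Il18, Il1a, Il1b, Il33 and Tnf) and in 12.4% of all promoters. TTCNNNGAA, the core bound by STAT proteins, was found in none of the 9 genes and in 7.02% of all promoters.

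Brain held few transcripts of most of these cytokines. No Il6 read was counted in any brain library, that is 0 of 224222857 counts, which allows a level of up to 0.0134 CPM over the 7 libraries (3 counts). A single Tnf read was counted, in WT 3. The highest brain counts were 16 for Il1a, 12 for Il1b, 6 for Il1rn, 14 for Osm and 8 for Lif, each in 1 library. By contrast, every brain library had at least 88 counts of Il33, 295 of Csf1 and 373 of Il18. Per kilobase of exon, Il18, Il33 and Csf1 were the most abundant of the 10 in WT brain, with means of 25.4, 3.49 and 2.19 CPM per kilobase. Among WT livers the order was Il1rn, Il18 and Il1a with 19.0, 10.9 and 5.35 CPM per kilobase, and in WT skin it was Il18, Csf1 and Il33 with 20.4, 16.2 and 3.12 CPM per kilobase. The Il18 model in this annotation has 702 exon bases, so that its level per kilobase depends on this model.

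**Figure D1:**
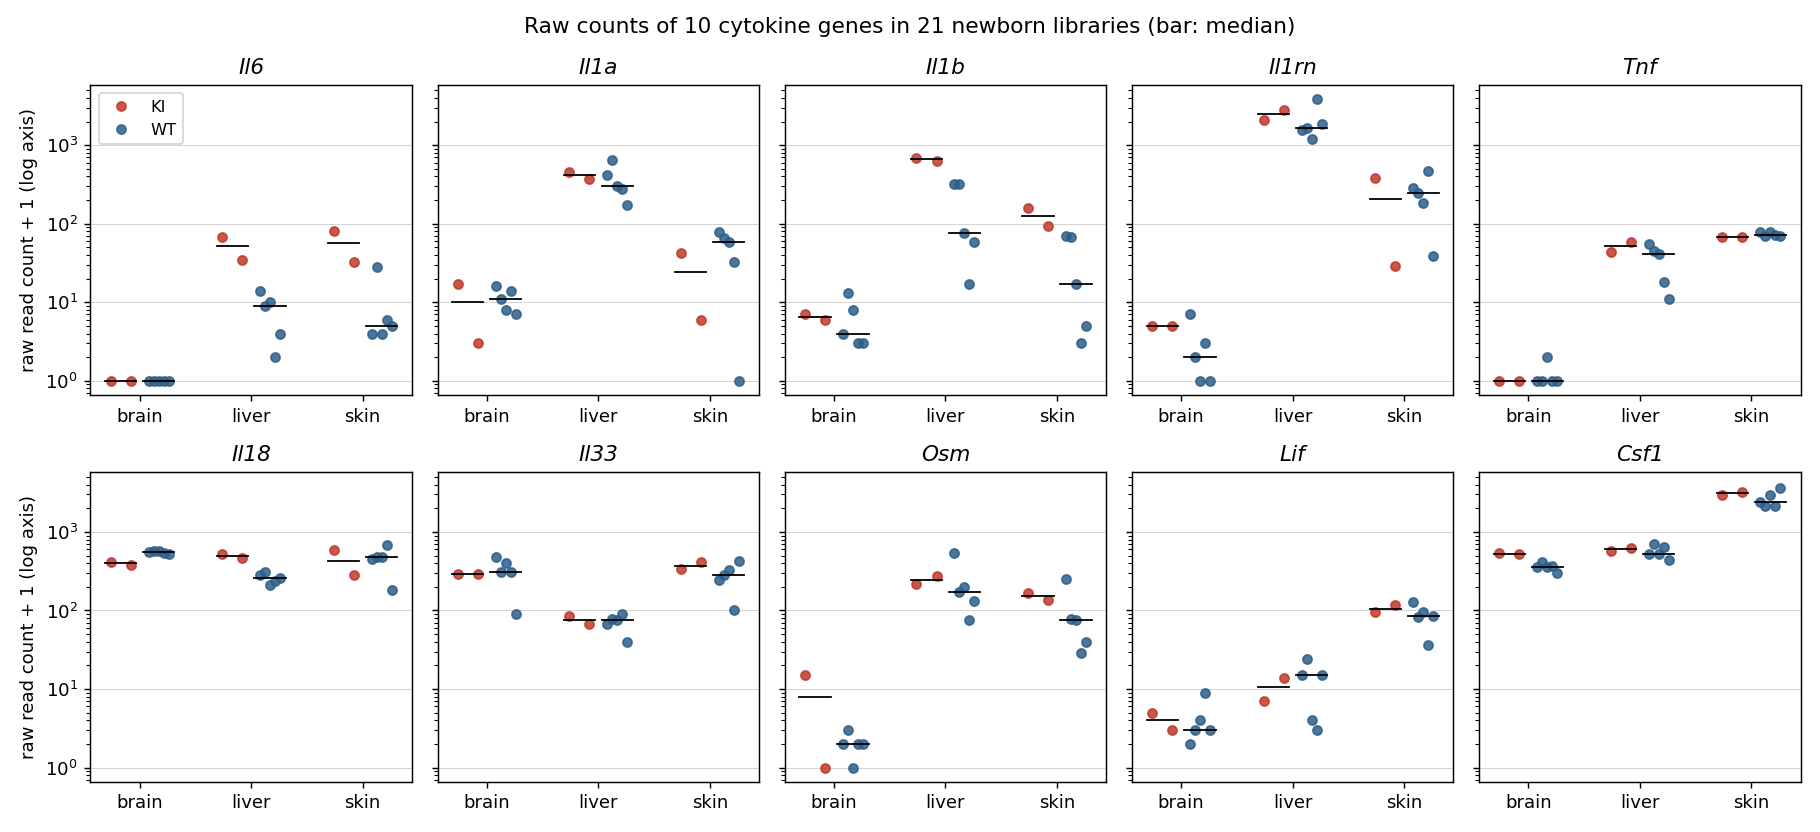
Raw read counts plus 1 (log axis) of each of the 10 genes in every library, by tissue; red points are KI libraries, blue points are WT libraries and bars are medians. Both KI points lie above all WT points for Il6 and Il1b in liver and skin, for Il18 in liver and for Csf1 in brain. Both lie below all WT points for Il18 in brain and, by raw counts but not by CPM, for Tnf in skin. The brain points of Il6 all lie at 0 counts.

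In WT mice the tissues differed by more than the spread between mice for most of the 10 genes, as for most genes: 83.4% of all genes tested were called between brain and liver, 79.4% between skin and brain and 72.3% between skin and liver (edgeR, adjusted p under 0.1). Of the 10 genes, 9 passed the filter on low counts in this fit, and Il6 did not. Liver exceeded brain for Il1a, Il1b, Il1rn, Tnf, Osm, Lif and Csf1. The gap was largest for Il1rn, whose level was 61.1 ± 33.4 CPM (SD, n = 5) in liver and 0.0552 ± 0.0763 CPM (SD, n = 5) in brain. Brain exceeded liver for the alarmin Il33 (log2 fold change 1.47, SE 0.411, adjusted p = 0.00376, edgeR) and for Il18 (log2 fold change 0.43, SE 0.218, adjusted p = 0.0813). With the mouse as a block the Il18 call was lost (log2 fold change 0.44, adjusted p = 0.105).

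Skin exceeded brain for Il1a, Il1b, Il1rn, Tnf, Osm, Lif and Csf1, and neither Il18 (-0.24, SE 0.217, on the log2 scale) nor Il33 (-0.07, SE 0.397) passed the test between these tissues. Compared with liver, skin had more Il33 (log2 fold change 1.40, SE 0.410), Lif (2.37, SE 0.553) and Csf1 (1.64, SE 0.176), and less Il1a (-3.55, SE 0.638), Il1b (-2.84, SE 0.894), Il1rn (-3.72, SE 0.510) and Osm (-1.83, SE 0.589). Csf1 in WT skin reached 85.4 ± 23.8 CPM (SD, n = 5), and all 5 skin libraries lay above all 10 WT libraries of the other tissues. Tnf and Il18 did not pass the test between skin and liver. These values depend on scaling, because scaling by library totals in place of TMM moved the median of all genes by 0.79 in brain against liver and by 0.71 in skin against liver on the log2 scale. None of the 9 genes tested changed direction under that scaling, and Tnf (1.23, adjusted p = 0.0145) and Il18 (0.90, adjusted p = 0.00155) were then also called higher in skin than in liver. According to the study's methods, RNA integrity was lower on average in the skin samples, and its part in the differences between tissues was not tested.

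Between KI and WT mice, 2 of the 10 genes rose in liver, Il6 and Il18, and none fell there. In liver 3.89% of all 14966 genes tested were called higher in KI mice and 1.68% lower, 5.57% in all (edgeR, adjusted p under 0.1). The median log2 fold change was 0.24 over the 10 genes and -0.02 over all genes. In brain 4 of the 10 genes passed the filter and none was called, where 0% of all 16322 genes were called. In skin all 10 were tested and none was called, where 0.0247% of all 16163 genes were called. At an unadjusted p under 0.05 the test gave 1 gene in brain (Il18, 10.6% of all genes), 3 in liver (Il6, Il1b and Il18, 17.9% of all genes) and 1 in skin (Il6, 4.57% of all genes). DESeq2 called 1 of the 10 genes in brain (Il18), 2 in liver and 0 in skin, where it called 3.40%, 9.25% and 0.700% of all genes. The medians were -0.32 over the 4 genes tested in brain and 0.32 over the 10 genes in skin, against -0.02 and -0.03 over all genes.

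**Figure D2:**
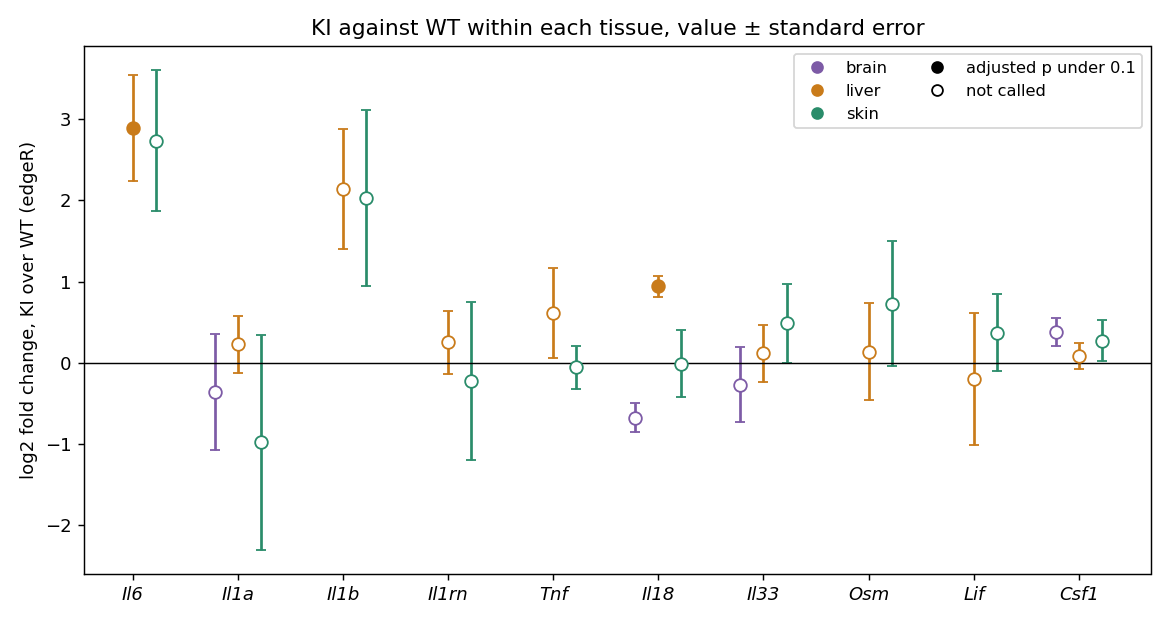
Log2 fold change of KI over WT (edgeR) for each gene that passed the filter, by tissue; bars are ± 1 standard error, filled points passed an adjusted p under 0.1 and open points did not. Only Il6 (2.89) and Il18 (0.94) in liver are filled, and Il6 and Il1b lie above 2 in both liver and skin with wide errors.

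Il6, the ligand whose receptor signals through gp130 and JAK1, rose in the KI livers. The raw Il6 counts were 67 and 34 in the livers of KI 1 and KI 2, and 13, 8, 9, 1 and 3 in those of WT 1 to WT 5. Both KI livers were above all WT livers, and the lower KI value, 0.982 CPM (95% exact binomial interval 0.680 to 1.37), was above the interval of the highest WT value, 0.392 CPM (0.209 to 0.670). Such intervals cover counting error only and not the spread between mice. The means were 1.53 ± 0.778 CPM (SD, n = 2) in KI and 0.203 ± 0.148 CPM (SD, n = 5) in WT mice. The log2 fold change was 2.89 (SE 0.648, adjusted p = 0.0525, edgeR). The call was lost without KI 1 (2.26, adjusted p = 0.375), without KI 2 (3.35, adjusted p = 0.205), without WT 2 (2.90, adjusted p = 0.103), with Y-linked expression as a covariate (2.91, adjusted p = 0.104) and with all 21 libraries in one fit (2.89, adjusted p = 0.182).

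In skin the Il6 counts were 79 and 32 in KI 1 and KI 2, and 3, 27, 3, 5 and 4 in WT 1 to WT 5. Both KI skins were again above all WT skins, as was true of 3.98% of all genes in skin, but WT 2 came close to KI 2. The log2 fold change was 2.74 (SE 0.871, adjusted p = 0.906, edgeR), and without WT 2 it was 3.90 (adjusted p = 0.339). The difference between the effects in skin and liver was -0.13 (SE 1.30, adjusted p = 1.00), in a fit of all 21 libraries. In brain no Il6 read was counted in either genotype.

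The other IL-6 family ligands did not pass the test. For Osm, which activates hepatocytes and stromal cells, the liver counts were 217 and 275 in KI and 539, 172, 201, 74 and 130 in WT 1 to WT 5. The KI livers lay within the WT range, which was set by WT 1 at the top and WT 4 at the bottom (log2 fold change 0.14, SE 0.593). Osm in skin was 164 and 136 counts in KI and 248, 77, 74, 28 and 39 in WT 1 to WT 5 (0.73, SE 0.765), with WT 1 again highest and WT 4 lowest. Osm counts in brain were 14 and 0 in KI and 0 to 2 in WT, so that KI 1 alone exceeded 2 counts, and the gene was not tested there. Lif counts were 6 and 13 in KI livers and 2 to 23 in WT livers (-0.20, SE 0.813), and 95 and 115 in KI skins and 127, 81, 96, 35 and 83 in WT skins (0.37, SE 0.471). In brain Lif had 1 to 8 counts per library.

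Il1b, which encodes the secreted agonist IL-1β, was higher in both KI mice than in every WT mouse in liver and in skin, but with a wide spread among WT mice. The liver counts were 695 and 621 in KI, and 317, 319, 76, 16 and 58 in WT 1 to WT 5. The WT livers fell into WT 1 and WT 2, near each other, and 3 mice well below them. The means were 19.8 ± 2.59 CPM (SD, n = 2) in KI and 4.51 ± 4.12 CPM (SD, n = 5) in WT livers. The log2 fold change was 2.14 (SE 0.738, adjusted p = 0.173, edgeR), which passed the threshold only without WT 4 (1.85, adjusted p = 0.0888) among the fits that left out 1 library. In skin the counts were 159 and 93 in KI and 68, 67, 16, 2 and 4 in WT 1 to WT 5, with a log2 fold change of 2.03 (SE 1.09, adjusted p = 0.999). Brain counts were 6 and 5 in KI and 2 to 12 in WT, and the gene was not tested there. In liver 3 of the 10 genes (Il6, Il1b and Il18) had both KI libraries above all WT libraries and none had both below, as 13.8% and 10.1% of all genes did. In skin 2 of the 10 (Il6 and Il1b) did so and none had both below, as 3.98% and 5.85% of all genes did.

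Il1a, the membrane-associated and intracellular agonist of the same receptor, did not follow Il1b. Its liver counts were 458 and 368 in KI and 411, 649, 300, 277 and 173 in WT 1 to WT 5, and the KI livers lay inside the WT range (log2 fold change 0.23, SE 0.352). In skin Il1a was 41 and 5 counts in KI and 77, 65, 58, 32 and 0 in WT 1 to WT 5 (-0.98, SE 1.32). The 2 lowest skin libraries, WT 5 and KI 2, were those lowest in keratinocyte markers. In brain the counts were 16 and 2 in KI and 15, 10, 7, 13 and 6 in WT (-0.36, SE 0.718).

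Il1rn, the antagonist, was the most abundant transcript of the IL-1 group in liver. Its liver counts were 2111 and 2834 in KI and 1580, 1678, 1207, 3871 and 1866 in WT 1 to WT 5. Only WT 4 exceeded the KI livers, and the log2 fold change was 0.25 (SE 0.391, adjusted p = 0.786, edgeR). Without WT 4 it was 0.66 and was called (adjusted p = 0.0350). Skin counts were 379 and 28 in KI and 286, 244, 183, 471 and 38 in WT 1 to WT 5 (-0.23, SE 0.972), with KI 2 and WT 5 far below the rest.

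The balance within the IL-1 genes is given as a description, without a test. Il1b made up 60.3% and 62.8% of the summed Il1a and Il1b counts in the KI livers, and 43.5%, 33.0%, 20.2%, 5.46% and 25.1% in the livers of WT 1 to WT 5. Both KI shares were above all WT shares, and the 95% exact interval of KI 1 (57.4% to 63.1%), which covers counting error only, lay above that of WT 1 (39.9% to 47.2%). In skin the shares were 79.5% and 94.9% in KI and 46.9%, 50.8%, 21.6% and 5.88% in WT 1 to WT 4, while WT 5 had 4 Il1b counts and no Il1a count. Il1rn counts per summed agonist count were 1.83 and 2.87 in KI livers and 2.17, 1.73, 3.21, 13.2 and 8.08 in those of WT 1 to WT 5, so that KI and WT overlapped.

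The same mouse tended to stand high or low in Il1b in liver and in skin. In liver the order from high to low was KI 1, KI 2, WT 1, WT 2, WT 3, WT 5 and WT 4, and in skin it was the same except that WT 2 and WT 1 changed places. Osm gave nearly the same pattern, with WT 1 highest and WT 5 and WT 4 lowest in both tissues. These 2 genes were singled out after their values were seen. By rank agreement over the 7 mice, 0.401% of the genes tested in both tissues agreed at least as closely as Il1b and 0.971% at least as closely as Osm, a description without a test. The other 8 genes did not stand out in this way: the share was 10.8% for Il1a, 55.9% for Tnf and 59.1% for Il18, and Il33 (98.6%) and Csf1 (92.7%) tended to run in the opposite order. None of the 10 genes had exactly the same order in both tissues, as 0.106% of the genes did. Summed immediate early transcripts, which respond to stimuli within minutes, also varied between mice: they were 427 and 400 CPM in the livers of KI 1 and KI 2 and 935, 555, 325, 256 and 137 CPM in those of WT 1 to WT 5. In skin they were 3297 and 1575 CPM in KI and 1967, 2317, 650, 803 and 502 CPM in WT 1 to WT 5. None of the 14 immediate early genes was called in any tissue. In skin, however, all 14 had log2 fold changes of KI over WT above 0, with a median of 0.93 against -0.03 over all genes. In liver 8 of the 14 did, with a median of 0.08 against -0.02. The part of these genes in the spread of Il1b, Il6 and Osm was not tested.

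**Figure D3:**
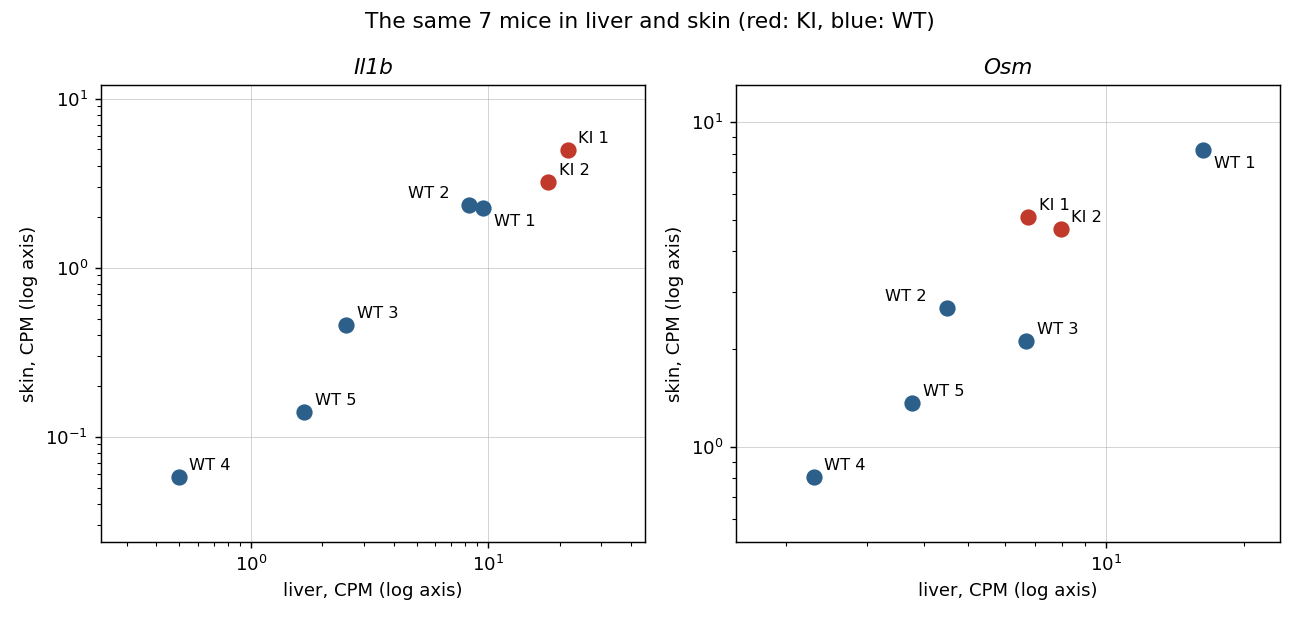
Il1b and Osm levels (CPM, log axes) of each mouse in liver (horizontal) against skin (vertical); red points are the 2 KI mice and blue points the 5 WT mice. Il1b runs from WT 4 (0.496 CPM in liver, 0.0578 CPM in skin) to KI 1 (21.6 and 4.95 CPM), and for Osm WT 1 lies above both KI mice in both tissues.

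Il18 had the smallest spread of the 10 genes among WT livers relative to its mean, and its KI libraries lay on opposite sides of the WT libraries in liver and brain. Its liver counts were 527 and 462 in KI and 280, 312, 209, 236 and 260 in WT 1 to WT 5. Both KI livers were above all WT livers, with means of 14.9 ± 2.14 CPM (SD, n = 2) and 7.67 ± 0.606 CPM (SD, n = 5). The log2 fold change was 0.94 (SE 0.132, adjusted p = 0.00952, edgeR). The call was lost without KI 1 (0.79, adjusted p = 0.101) and with all 21 libraries in one fit (0.93, adjusted p = 0.171).

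In brain the Il18 counts were 419 and 373 in KI and 560, 574, 564, 536 and 519 in WT 1 to WT 5. Both KI brains were below all WT brains, as was true of 14.3% of all genes in brain, with means of 11.4 ± 0.461 CPM (SD, n = 2) and 17.8 ± 1.35 CPM (SD, n = 5). The log2 fold change was -0.68 (SE 0.180, adjusted p = 0.284, edgeR), and it passed the threshold without WT 5 (-0.60, adjusted p = 0.0512) and with DESeq2 (-0.67, adjusted p = 0.0158). The effects in liver and brain differed by 1.52 (SE 0.411, adjusted p = 0.0768, edgeR interaction term), the only such call among the 10 genes, where 2.81% of all genes were called. With the mouse as a block this difference was 1.51 (adjusted p = 0.108). Leaving out KI 1, KI 2, WT 1, WT 2 or WT 3 also ended the call, giving 0 genes called each time.

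In skin the Il18 counts were 581 and 282 in KI and 446, 485, 475, 689 and 183 in WT 1 to WT 5. The groups overlapped fully (log2 fold change -0.01, SE 0.412), and KI 2 and WT 5 were again the lowest. The effect in skin minus that in liver was -0.92 (adjusted p = 0.848), with 0.0997% of all genes called in that contrast.

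**Figure D4:**
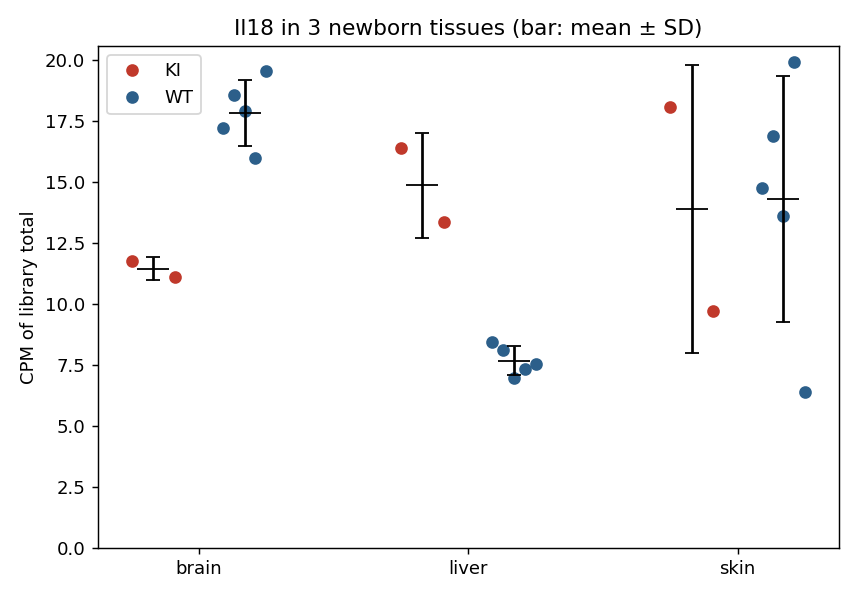
Il18 level (CPM of the library total, axis from 0) in each KI (red) and WT (blue) library by tissue; horizontal bars are means and vertical bars ± 1 SD. KI points lie below all WT points in brain, above all of them in liver and among them in skin.

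Il33, an alarmin of barrier cells and glia, did not pass the test in any tissue. Its brain counts were 293 and 290 in KI and 484, 309, 404, 305 and 88 in WT 1 to WT 5, with WT 5 far below the others (log2 fold change -0.27, SE 0.463). Liver counts were 85 and 66 in KI and 67, 76, 75, 89 and 39 in WT (0.12, SE 0.350). In skin they were 335 and 410 in KI and 243, 278, 329, 101 and 422 in WT 1 to WT 5 (0.49, SE 0.490), and unlike Il1a, Il1rn and Il18 the gene was high in KI 2 and WT 5.

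Tnf varied little in skin, with 66 and 67 counts in KI and 77, 68, 77, 70 and 69 in WT 1 to WT 5 (log2 fold change -0.05, SE 0.265). In liver it was 43 and 58 counts in KI and 54, 44, 40, 17 and 10 in WT (0.61, SE 0.556, adjusted p = 0.610, edgeR), where WT 4 and WT 5 were low as for Il1b. Csf1 had higher counts in both KI brains than in any WT brain, at 532 and 529 against 352, 410, 362, 369 and 295 in WT 1 to WT 5, as was true of 13.0% of all genes in brain. Its log2 fold change in brain was 0.38 (SE 0.171, adjusted p = 0.482). Csf1 was 576 and 630 counts in KI livers and 444 to 698 in WT livers (0.09, SE 0.161), and 2980 and 3194 counts in KI skins and 2146 to 3585 in WT skins (0.27, SE 0.254).

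Il1a, Il1rn and Il18, all known to be expressed by keratinocytes, were lowest in the 2 skin libraries that were lowest in keratinocyte markers. In KI 2 these 3 genes had 0.172, 0.965 and 9.72 CPM, and in WT 5 they had 0, 1.33 and 6.39 CPM. The other 5 skin libraries had 0.924 to 2.54 CPM of Il1a, 5.24 to 13.6 CPM of Il1rn and 13.6 to 19.9 CPM of Il18. Il33, also made by barrier cells, went the other way: it was highest in KI 2 (14.1 CPM) and WT 5 (14.7 CPM), against 2.92 to 10.4 CPM in the other 5. Without these 2 libraries the log2 fold changes of KI over WT in skin were -0.49 for Il1a, 0.38 for Il1rn and 0.18 for Il18, and 0 of the 10 genes were called. Il6 was then 3.03 and Il1b 2.02, against 2.74 and 2.03 with all 7 libraries. Within the other 5 libraries Il1a did not follow the keratinocyte sum, since WT 4 had the highest sum (13171 CPM) and the lowest Il1a (0.924 CPM). Il1rn and Il18 were highest in WT 4. The keratins were also not equally low: Krt1 was 101 and 183 CPM in KI 2 and WT 5, against 978 to 5733 CPM in the other 5. Krt5 was 435 and 694 CPM against 1121 to 2501 CPM. In bulk tissue, fewer cells of a type and less RNA per cell cannot be told apart. The study's methods also give a lower average RNA integrity for the skin samples than for its other samples. The integrity of each library is not given there, and its part in these values was not tested.

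**Figure D5:**
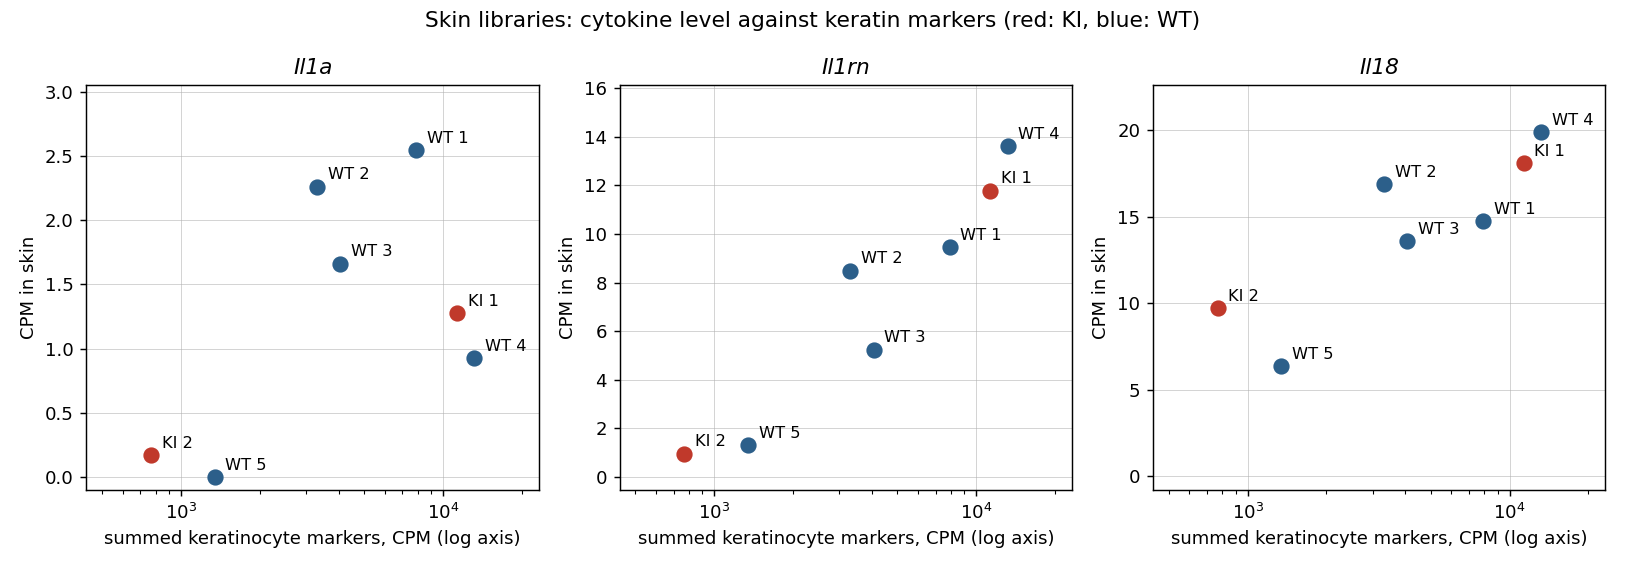
Levels of Il1a, Il1rn and Il18 in skin (CPM) against the summed keratinocyte markers Krt5, Krt14, Krt1 and Krt10 (CPM, log axis); red points are KI and blue points WT libraries. KI 2 (768 CPM) and WT 5 (1343 CPM) lie at the lower left in all 3 panels.

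Genes that receive, process or report these signals were examined in lists written from general knowledge, with earlier results of these data known. Beside the liver counts below, 3.89% of all genes tested in liver were called higher in KI mice and 1.68% lower. In brain 0% and in skin 0.0247% of all genes tested were called. Among 14 receptors and decoys, 3 rose in KI livers and none fell: the decoy receptor Il1r2 (log2 fold change 1.82, SE 0.386, adjusted p = 0.0443, edgeR), the TNF receptor Tnfrsf1a (0.45, SE 0.104) and the CSF1 receptor Csf1r (0.49, SE 0.131). Il6st, which encodes gp130, was 0.86 in liver (SE 0.253, adjusted p = 0.116), and the soluble inhibitor Il18bp was 0.52 (SE 0.168, adjusted p = 0.151), and both were singled out after their values were seen. The median over the receptor list was 0.46, against -0.02 over all genes. In skin all 14 receptors had positive log2 fold changes with a median of 0.55, and none was called. In brain none of the 12 tested was called.

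Of the 16 genes for processing and release of these cytokines, 7 rose in KI livers and none fell. They included Pycard (log2 fold change 0.70, SE 0.133) and Casp1 (0.98, SE 0.189), which form the inflammasome that matures IL-1β and IL-18, and Casp4 (1.10, SE 0.213), a caspase that senses bacterial lipopolysaccharide, with adjusted p-values of 0.0299, 0.0309 and 0.0309 (edgeR). The fourth by adjusted p was the neutrophil protease Ctsg (0.49, SE 0.117). None of these genes was called in brain (12 tested) or skin (16 tested).

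Among related cytokines 12 of 29 in the tables were tested in liver and 4 rose: Il1f9, which encodes IL-36γ (log2 fold change 1.49, SE 0.365), the lymphotoxin gene Ltb (0.77, SE 0.190), Tnfsf14 (0.92, SE 0.239) and Ebi3, which encodes a subunit of IL-27 and IL-35 (0.60, SE 0.158). None of this list was called in brain or skin. The largest value in skin was that of Il23a (-2.45, SE 0.815, adjusted p = 0.951), at 0.0828 ± 0.0291 CPM (SD, n = 2) in KI and 0.489 ± 0.316 CPM (SD, n = 5) in WT mice.

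Transcripts commonly used as readouts of IL-6, IL-1 and TNF signaling were called in liver and skin. In liver 6 of 29 rose and none fell, among them the selectin genes Selp (log2 fold change 2.80, SE 0.226) and Sele (3.61, SE 0.506), the acute phase gene Lrg1 (1.62, SE 0.133) and Socs3 (2.09, SE 0.314), the feedback inhibitor of gp130 signaling, with adjusted p-values of 0.000759, 0.00952, 0.000759 and 0.0120 (edgeR). Lrg1 was 280 ± 3.28 CPM (SD, n = 2) in KI and 90.2 ± 12.4 CPM (SD, n = 5) in WT livers. In skin 3 of 29 rose, namely Cebpd (1.21, SE 0.123), Lrg1 (2.48, SE 0.267) and Selp (1.78, SE 0.178), each with an adjusted p of 0.0899. Together with Oasl1, named here because it completes the count, they were the 4 genes called in skin. Without WT 3 only 1 gene of these lists was called in skin, and leaving out any other single library or KI 2 and WT 5 together gave 0. In brain none of the 20 tested was called, and the largest values were those of the chemokine gene Ccl3 (-1.92, SE 0.522, adjusted p = 0.291) and the acute phase gene Hp (1.54, SE 0.660, adjusted p = 0.465). Hp is a hepatocyte gene. The summed hepatocyte markers (Alb, Afp, Ttr and Apoa1) in brain were 882 and 995 CPM in KI and 38.5, 33.9, 366, 1218 and 2413 CPM in WT 1 to WT 5. The 4 markers did not move together there: 2 had log2 fold changes above 0, and 2 had both KI brains below all WT brains. The sum may therefore not measure hepatocytes alone in brain, and its part in the Hp value was not tested.

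Of 22 signal adaptors only Myd88, the adaptor of IL-1 family receptors, rose in liver (log2 fold change 0.50, SE 0.102, adjusted p = 0.0368, edgeR), and of 9 genes for decay or stabilization of cytokine transcripts only Arid5a rose there (0.96, SE 0.263, adjusted p = 0.0971), a protein known to stabilize Il6 mRNA. No gene of these 2 lists was called in brain or skin. Over all of these lists 22 genes were called in liver, and this count was 6 without KI 1, 3 without KI 2 and 12 without WT 1.

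Some macrophage, neutrophil and B lineage markers were called higher in KI livers, where 3.89% of all genes tested were, and no hepatocyte or erythroid marker was called. The summed level of 6 macrophage markers was 945 and 792 CPM in KI livers and 504 to 642 CPM in WT livers, and 5 of the 6 were called higher (Adgre1, Cd68, Csf1r, C1qa and C1qb). The summed level of 7 neutrophil markers was 6267 and 7503 CPM in KI livers and 3898 to 5101 CPM in WT livers, and S100a8 and S100a9 were called higher. No macrophage or neutrophil marker was at 0 in any liver. Of the B lineage markers, 3 of 4 were called higher in KI livers, with sums of 101 and 102 CPM against 55.1 to 80.1 CPM. Calls also occurred in lists of cells with low sums in liver. In the mast cell and neuron lists 1 of 3 genes tested was called higher in each, with list medians of -0.86 and 0.30. The 2 T and NK cell markers tested had both KI livers above all WT livers, as 13.8% of all genes did, and neither was called. In the other direction, the summed hepatocyte markers were 131380 and 130864 CPM in KI livers, below all WT livers (138760 to 156827 CPM), with none of the 4 genes called and a median log2 fold change of -0.21. The erythroid sum was 1129 and 1031 CPM in KI and 1108 to 1655 CPM in WT livers, with none of 4 genes called and a median of -0.39. In skin the macrophage sum was 491 and 657 CPM in KI and 355 to 447 CPM in WT mice with no marker called, and the neutrophil sum was 14.6 to 36.4 CPM. The part of these cells in the rise of Il6, Il18 and the genes for their processing was not tested.

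The genes with the most similar pattern over the 21 libraries (Pearson correlation of log2 CPM, a measure carried largely by the differences between tissues) were Mcam for Csf1 (r = 0.99), Defb1 for Il1rn (0.99), Ripk3 for Tnf (0.99), Themis2 for Osm (0.96), Stk38 for Lif (0.96), Klhl4 for Il33 (0.94), Hsbp1l1 for Il1a (0.94), Gm6377 for Il1b (0.92) and 4933427E11Rik for Il18 (0.84). Il18 thus had the least similar nearest gene. For Il6, over the 7 livers alone, they were Caml, Lck and Ccr3 (each 0.99). These values are a description of libraries that share mice and tissues.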

How the data were processed

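Total RNA of brain, liver and skin from 2 KI and 5 WT newborn mice was sequenced by the authors as paired-end reads from TruSeq RNA Library Prep Kit v2 libraries, which do not keep the strand. According to the study's methods, the authors removed adapters and used TopHat2 for alignment to the mouse build mm9, and the submitters' processing notes also list HTSeq and DESeq. The annotation used for counting is not given in the sources used here. Each deposited table holds raw counts, without normalization, by gene symbol for 1 library, and 5 summary lines for reads not counted on a gene. These lines held 30.4% to 38.1% of all tallies and were left out of library sizes and tests.

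KI and WT libraries were compared within each tissue by edgeR 4.0.16 in R 4.3.3 (quasi-likelihood test, TMM, filterByExpr), with Benjamini-Hochberg adjustment over all genes tested and calls at an adjusted p under 0.1. Standard errors were derived from the fold change and its F statistic. Tissues were compared in the 15 WT libraries, and the KI effect between tissues by interaction terms over all 21 libraries. Equal genotype and number in 3 titles was read as 1 mouse, from the titles and the study's number of mice, and the mouse as a block was an alternative for comparisons between tissues. CPM (counts per 1000000 counts on genes) were computed with library totals, with a prior count of 2 on the log2 scale for correlations. Intervals are exact 95% binomial intervals and cover counting error only. Alternatives were DESeq2 1.42.0, its size factors, no filter beyond 1 count, an adjusted p under 0.05, a fit of all 21 libraries, a Y-linked covariate, a replicate block and leaving out each library. Others, chosen after seeing the data, were skin without KI 2 and WT 5 and, between tissues, library totals without TMM. The scripts were tested on simulated data.

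The 10 genes and all lists were chosen with earlier results of these data known. All 10 genes are named in every tissue, and of each other list at most 4 genes per tissue, by lowest adjusted p among those called or by largest change where none was called. Exceptions, named after their values were seen, are Il6st, Osmr, Il18bp, Oasl1 and the 5 macrophage markers called in liver. Nothing in the labels says that the mice were of separate litters, so p-values measure the spread between these mice. Il37, Ly6g and Trbc2 were listed but not matched among the symbols. Gene positions and exon lengths came from the GENCODE annotation of NCBIM37, and promoters from RefSeq.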

Additional observations from a re-analysis of the deposited data

Results flagged for a closer look

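Results stood out by the spread within a group or by a difference between tissues. In 25 groups of 5 WT libraries, 4 had 1 library far from the others (gap to the nearest library divided by the range, above 0.71). For independent, normally distributed values chance alone gives about 1 in 20 such groups. That rate may not hold here, because CPM were not checked for such a distribution, some rest on few counts and the groups share mice. Il6 in skin was highest in WT 2 with 0.940 CPM and a gap of 0.931 of the range. Il1rn in liver was highest in WT 4 with 120 CPM and a gap of 0.826 of the range. Osm in skin was highest in WT 1 with 8.19 CPM and a gap of 0.747 of the range, and the same mouse was highest for Osm in liver. Csf1 in brain was highest in WT 2 with 13.2 CPM and a gap of 0.716 of the range, still below both KI brains.

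The KI effect on Il18 differed between liver and brain by 1.52 on the log2 scale (adjusted p = 0.0768, edgeR interaction term), from 0.93 in liver and -0.59 in brain in the fit of all 21 libraries. The alternatives that ended this call are given with the Il18 values and in the next part.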

How the results depend on the processing

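The comparisons between tissues and those in skin kept their counts of called members under all alternatives run, within 1.5 times. The directions of Il6, Il1b, Tnf, Il18, Il1rn and Csf1 in liver and of Il18 and Csf1 in brain did not turn in any. In liver 2 members were called, against 1 at an adjusted p under 0.05, 1 with the Y-linked covariate, 0 with all 21 libraries in one fit and 0 to 4 on leaving out 1 library. In brain 0 were called, against 1 with DESeq2 and 0 to 1 on leaving out 1 library. For the KI effect in liver minus brain 1 was called, against 0 at an adjusted p under 0.05 and 0 to 1 on leaving out 1 library, where 1 was called in the fits without WT 4 or WT 5 and 0 in the others. Over the other lists the calls in brain were 0, against 2 with all 21 libraries, 1 with DESeq2 and 0 to 4 on leaving out 1 library. In liver they were 22, against 11 at an adjusted p under 0.05, 4 with all 21 libraries, 12 with the Y-linked covariate and 3 to 30 on leaving out 1 library. In skin they were 3, against 0 at an adjusted p under 0.05, 7 with DESeq2, 1 with the Y-linked covariate, 0 without KI 2 and WT 5 and 0 to 1 on leaving out 1 library. Over all genes, brain gave 0 calls, against 56 higher and 458 lower with DESeq2 and 173 and 441 with all 21 libraries. Liver gave 582 higher and 251 lower, against 839 and 623 with DESeq2, 281 and 98 with the Y-linked covariate and 156 and 86 with all 21 libraries. Skin gave 4 higher and 0 lower, against 97 and 12 with DESeq2, 1 and 0 with the Y-linked covariate and 22 and 1 with all 21 libraries. Where a cause is not plain from the setting, such as fewer samples, the cause was not tested.

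Some log2 fold changes turned sign, in no case past the threshold. Il18 in skin turned to 0.00513 with all 21 libraries, 0.00316 without the filter, 0.0433 with the Y-linked covariate and 0.18 without KI 2 and WT 5, and ranged from -0.48 to 0.36 on leaving out 1 library. Il1rn in skin turned to 0.38 without KI 2 and WT 5 and ranged from -2.89 to 0.65, and Lif in liver turned to 0.12 with the Y-linked covariate and ranged from -0.77 to 0.22. On leaving out 1 library Il1a in brain ranged from -2.40 to 0.45, Il33 in liver from -0.13 to 0.35, Osm in liver from -0.0754 to 0.739 and Tnf in skin from -0.149 to 0.0777.

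KI and WT mice share the replicate numbers 1 and 2, but no label ties the numbers to a litter, and the deviations of same-numbered libraries correlated at 0.02 and -0.09 in brain, -0.03 and -0.09 in liver and 0.20 and 0.04 in skin. With the number as a replicate block 1 member was called in brain (Il18, -0.66, adjusted p = 0.0852) and 4 in liver (Il6 2.35, adjusted p = 0.0963, Il18 0.87, adjusted p = 0.0410, Il1b 1.18, adjusted p = 0.0126, and Il1rn 0.72, adjusted p = 0.0249), and over the lists 3 genes in brain and 0 in skin. Over all genes the block gave 783 higher and 1382 lower in brain, and 0 in skin. Il1a in liver turned to -0.20 and Osm in liver to -0.21 under this block. With the mouse as a block the liver minus brain count was 0.

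Depth limits Il6, Il1b, Tnf, Il1rn, Osm and Lif in brain, which held 0 to 14 counts per library.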
